A study of Mus musculus with 90 samples.

Results

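The 48 genes described here are the keratins of the mouse as the array annotation names them, that is, every gene whose symbol is Krt followed by a digit. They were taken from the 18193 genes that had at least 1 probe set of their own, and for each gene the probe set of highest mean was taken. They comprise 6 simple keratins (Krt7, Krt8, Krt18, Krt19, Krt20 and Krt23), 20 keratins of epidermis and other stratified epithelium, 13 hair shaft keratins, 8 keratins of the inner root sheath and companion layer, and Krt222, which was given no class. By the annotation 24 of them lie on chromosome 11 and 24 on chromosome 15.

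RNA was measured on 90 arrays of melanoma allografts grown under the skin, 1 array per tumour sample. Every sample carried the genotype label Hgftg;Cdk4R24C/R24C, which is an Hgf transgene with the R24C change in both Cdk4 alleles, and the strain label B6.cBrd. Responder (27), Relapse (6), Stabilization (3), NonResponder (23) and GrowthDelay (2) tumours received an antibody against PD-L1, a mouse IgG1 with the D265A change, at 10 mg/kg. Responder tumours had lost at least 5% of their volume, Relapse tumours had regrown after regressing, Stabilization tumours held their volume, NonResponder tumours kept growing, and GrowthDelay tumours appeared only under treatment. Control IgG tumours (22) received normal IgG at 10 mg/kg and PBS tumours (7) received PBS at 10 ml/kg. The treated groups were defined by how the tumours grew, so they are not arms to which tumours were assigned. Whether the samples of a group come from different mice is not in the labels, and p-values therefore measure the spread between these samples, which may be technical.

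Keratins are intermediate filament proteins of epithelial cells, and each filament is built from pairs of a type I and a type II chain. Simple keratins such as Krt8 and Krt18 are made by single-layered and glandular epithelia, Krt5 and Krt14 by the basal layer of the epidermis, Krt1 and Krt10 by the layers above it, and the hair keratins by the hair follicle. Melanocytes belong to another lineage, and their intermediate filament protein is vimentin.

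Title numbers of the samples fall into 4 ranges, called title series here, and nothing in the labels says what they stand for. Responder, Relapse and NonResponder tumours occur in both the larger series (53 arrays) and the smaller one (25 arrays), and the Stabilization tumours lie in the smaller one alone. A further 8 control IgG and 4 PBS arrays have ranges of their own. The mean correlation of an array with all others over all genes ran from 0.883 to 0.983. Responder 4, Responder 20, Responder 21, Stabilization 1, Stabilization 2 and NonResponder 14 lay under 0.96, the highest of them at 0.953 and the next array at 0.964, and the correlations, and the calls that they alter, are also given without them. Precision here is limited by the number of arrays. In tissue of mixed cells, fewer cells of a type and less RNA per cell cannot be told apart.

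Krt8, Krt18 and Krt7 were high together in a few arrays, and the RefSeq windows around their starts are shown for that reason. Each window spans the bases just before the start and the first transcribed ones (build GRCm38.p6). Capitals mark matches, on either strand, to 4 motifs. These are the TATA box letters TATAAA, the GC box letters GGGCGG, the E-box letters CACCTG and the AP-1 letters TGANTCA. The windows are chr15:102004293-102004592 on the minus strand for Krt8, chr15:102027966-102028265 on the plus strand for Krt18 and chr15:101412153-101412452 on the plus strand for Krt7. Krt8 and Krt18 are next to each other in the annotation's gene order.
Krt8: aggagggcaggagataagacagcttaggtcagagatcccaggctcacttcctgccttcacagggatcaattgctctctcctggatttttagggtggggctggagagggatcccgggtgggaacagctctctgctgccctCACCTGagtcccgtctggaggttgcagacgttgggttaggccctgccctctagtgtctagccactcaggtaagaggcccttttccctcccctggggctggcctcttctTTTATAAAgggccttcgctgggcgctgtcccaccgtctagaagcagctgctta
Krt18: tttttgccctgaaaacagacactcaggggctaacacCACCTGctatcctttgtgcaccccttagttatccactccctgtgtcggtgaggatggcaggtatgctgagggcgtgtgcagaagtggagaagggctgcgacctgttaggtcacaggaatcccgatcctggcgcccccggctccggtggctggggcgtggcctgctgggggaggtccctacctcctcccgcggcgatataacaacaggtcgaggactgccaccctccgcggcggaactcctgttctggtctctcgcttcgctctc
Krt7: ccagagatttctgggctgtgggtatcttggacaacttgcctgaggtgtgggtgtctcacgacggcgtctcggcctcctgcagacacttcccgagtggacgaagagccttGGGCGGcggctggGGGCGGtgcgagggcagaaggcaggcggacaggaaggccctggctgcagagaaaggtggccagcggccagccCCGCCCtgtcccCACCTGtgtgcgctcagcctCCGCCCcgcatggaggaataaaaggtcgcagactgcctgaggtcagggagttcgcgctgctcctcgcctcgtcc
The Krt8 window holds TATAAA on both strands at overlapping places, 2 matches in all, and 1 CACCTG. The Krt18 window holds CACCTG in 1 place and none of the other motifs, and the Krt7 window holds GGGCGG in 4 places and CACCTG in 1. Among the 33 listed promoters of 32 keratin genes, TATAAA was found in 18 (54.5%), against 13.6% of all 32851 promoters of that length. CACCTG was found in 12 (36.4%), against 20.2% of all promoters. GGGCGG was found in 2 (6.1%), against 35.7%, and TGANTCA in 2 (6.1%), against 7.8%. A match is a string of letters and not a bound site.

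Most keratins were nearly level over the 90 arrays. The distance from the lowest to the highest array was under 1.5 on the log2 scale in 39 of the 48 genes, including all 21 hair shaft and inner root sheath keratins, whose widest range was 1.42. Among all 18193 genes the median range was 1.45, 9496 had a range under 1.5, and 29.9% had a range over 2. Of the 48 keratins 40 are among the dimmest 40 percent of genes. Their ranges were not set beside those of dim genes alone. Krt18 spanned 6.71, Krt8 4.90, Krt19 4.77 and Krt7 3.98, and 3 epidermal genes also passed 2, namely Krt10 (2.44), Krt76 (2.22) and Krt14 (2.03). The 2 remaining simple keratins stayed narrow, Krt20 at 0.99 and Krt23 at 0.88.

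**Figure D1:**
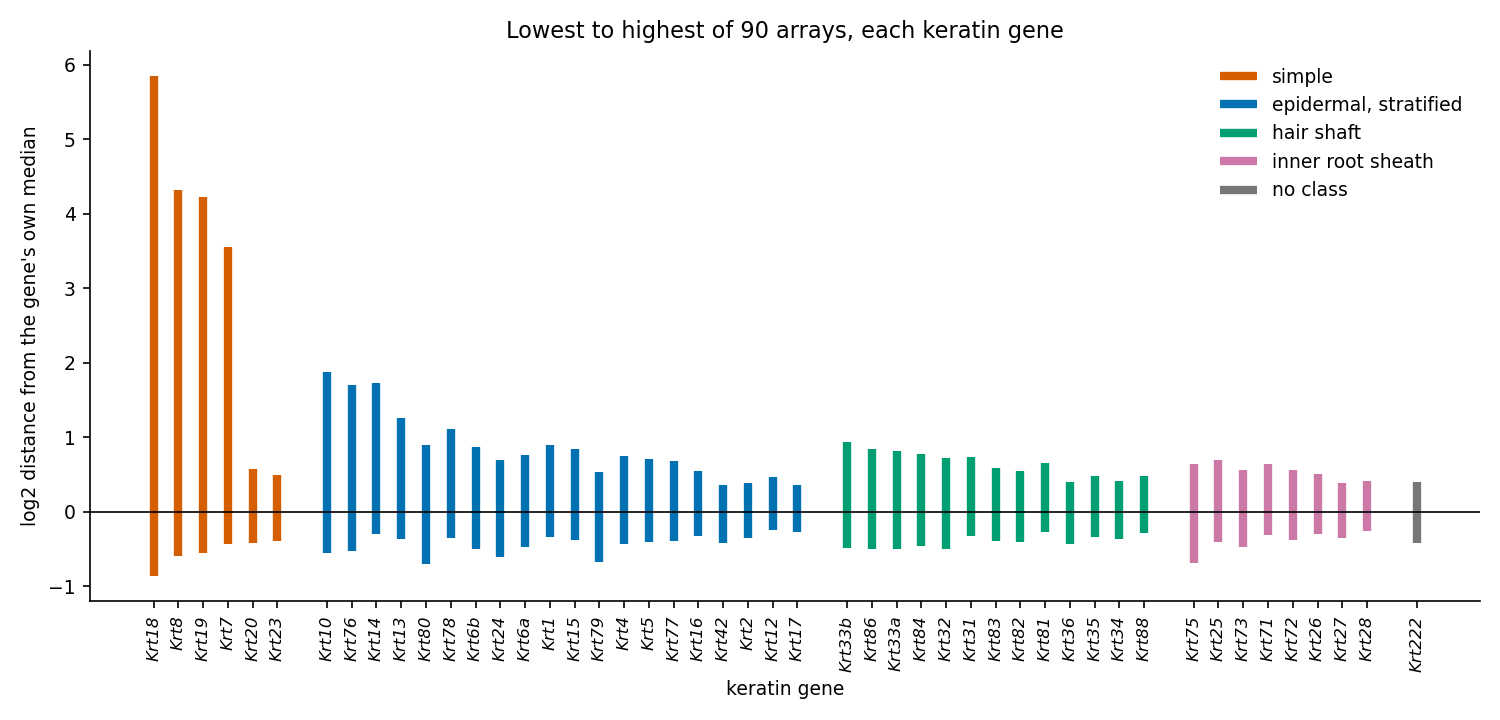
Distance of the lowest and highest of 90 arrays from each keratin's own median (log2), 1 bar per gene, coloured by class. Krt18, Krt8, Krt19 and Krt7 reach 5.85, 4.31, 4.22 and 3.55 above their medians, while no hair keratin reaches 1.

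Krt18, the type I partner of Krt8 in simple epithelia, had the widest range of the family. Its lowest, median and highest log2 values were 3.62, 4.36 and 10.33 in Responder tumours, 4.07, 4.73 and 8.52 in Relapse tumours, 3.77, 4.43 and 7.73 in NonResponder tumours, 4.05, 4.57 and 6.69 in control IgG tumours, and 4.07, 4.26 and 4.95 in PBS tumours. It was 4.15, 5.73 and 4.14 in the Stabilization tumours and 4.49 and 3.98 in the GrowthDelay tumours. The groups overlapped almost wholly, and single arrays stood far above them. Krt18 lay more than 4-fold above its median of 4.48 in 8 arrays, 4 Responder, 2 Relapse, 1 NonResponder and 1 control IgG, and more than 2-fold above it in 16.

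Krt8, the type II chain of the same filaments, followed this pattern. It had lowest, median and highest values of 4.64, 5.19 and 9.55 in Responder tumours, 5.16, 5.29 and 7.88 in Relapse tumours, 4.87, 5.24 and 7.45 in NonResponder tumours, 4.86, 5.39 and 6.23 in control IgG tumours, and 4.90, 5.15 and 5.47 in PBS tumours. Its values were 4.99, 5.96 and 5.12 in the Stabilization tumours and 5.09 and 5.41 in the GrowthDelay tumours. Krt8 was more than 4-fold above its median in 5 arrays, 2 Responder, 2 Relapse and 1 NonResponder. The 3 probe sets of Krt8 gave the same picture, with correlations of 0.965 between the one used and each of the others.

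Krt19, a type I keratin of ducts and glands, was widest in the same groups. It had lowest, median and highest values of 5.23, 5.76 and 10.00 in Responder tumours, 5.35, 6.10 and 8.34 in Relapse tumours, 5.29, 5.63 and 8.13 in NonResponder tumours, 5.46, 5.88 and 7.27 in control IgG tumours, and 5.51, 5.87 and 7.07 in PBS tumours. Krt7, a type II keratin of glandular and ductal epithelium, had lowest, median and highest values of 3.86, 4.20 and 7.84 in Responder tumours, 4.09, 4.27 and 6.28 in Relapse tumours, 4.03, 4.30 and 5.71 in NonResponder tumours, 4.03, 4.34 and 4.69 in control IgG tumours, and 4.01, 4.35 and 4.74 in PBS tumours. Krt19 was more than 4-fold above its median in 6 arrays and Krt7 in 1. In the Stabilization tumours Krt19 was 6.89, 6.83 and 5.72, and Krt7 was 4.41, 4.48 and 4.06. In the GrowthDelay tumours Krt19 was 5.80 and 5.56, and Krt7 was 4.18 and 4.02.

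**Figure D2:**
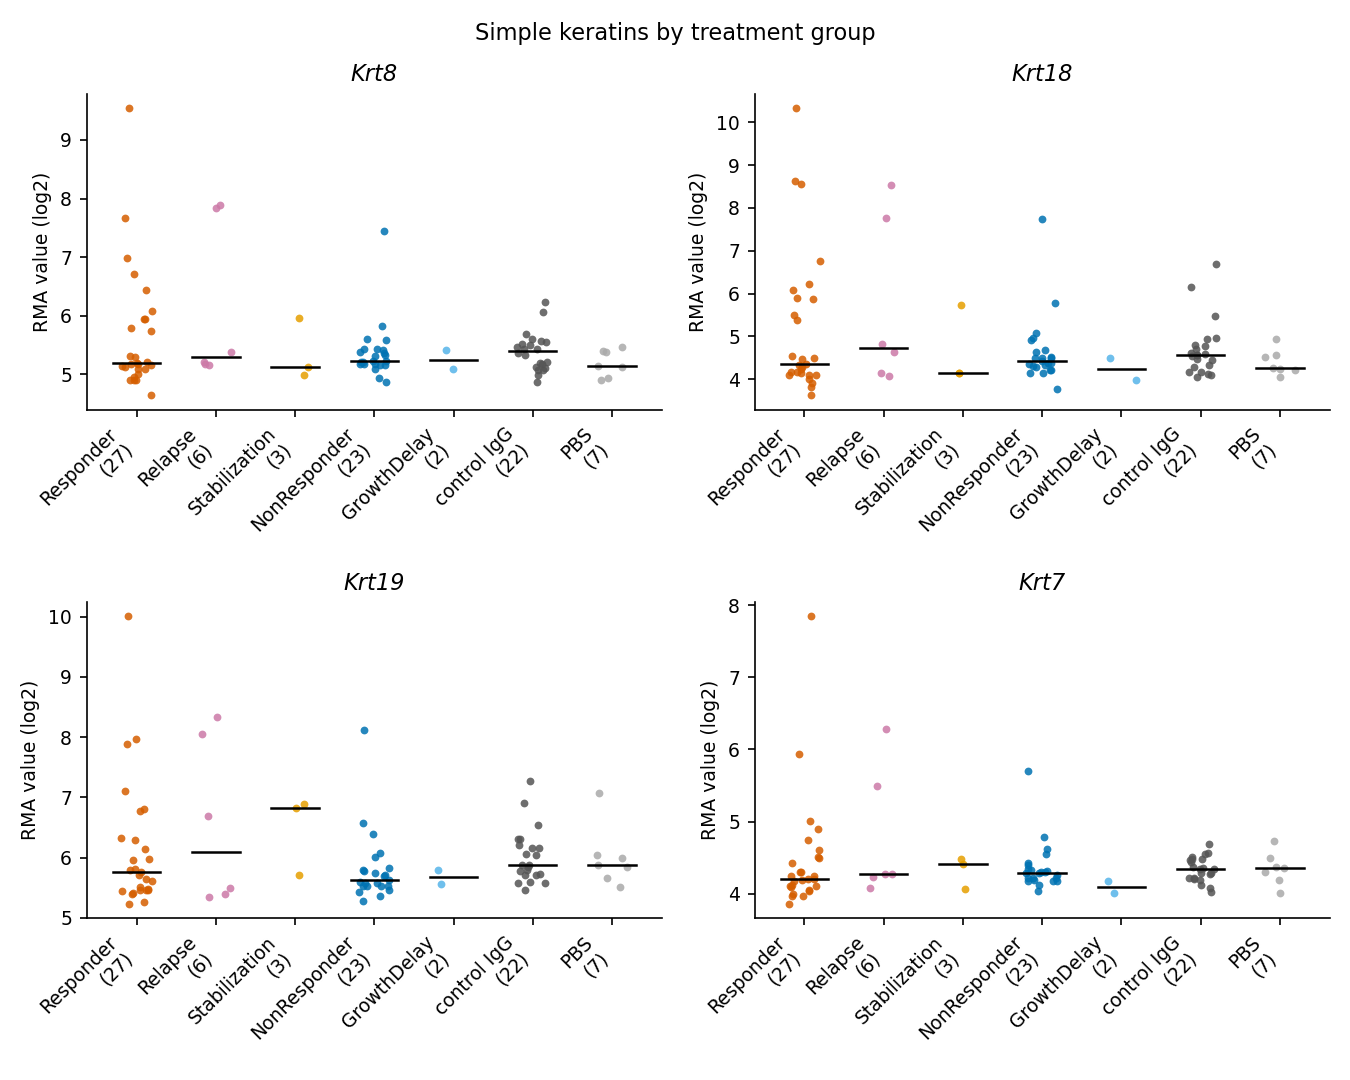
Log2 values of Krt8, Krt18, Krt19 and Krt7 in the 7 groups, 1 point per array, with the number of arrays under each group and a bar at the group median. The medians lie close together, except for Krt19 in the 3 Stabilization arrays (6.83), and a few Responder, Relapse and NonResponder arrays stand far above them, up to 10.33 for Krt18.

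The high arrays were largely the same for the 4 genes. Of the 7 highest arrays of each gene, 6 were shared by all 4 genes, namely Responder 3, Responder 18, Responder 20, NonResponder 14, Relapse 4 and Relapse 6. All but Responder 18 were more than 2-fold above the median in all 4 genes. Responder 20 was the highest array for each, with 10.33 for Krt18, 10.00 for Krt19, 9.55 for Krt8 and 7.84 for Krt7. Relapse 4 and Relapse 6 had Krt18 at 7.76 and 8.52, whereas the other 4 Relapse tumours lay between 4.07 and 4.82. These arrays are named because of their values, so the sharing is a description.

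Krt20, known from intestinal and urothelial epithelium, and Krt23 did not take part. In Responder 20 and elsewhere among Responder tumours Krt20 did not pass 5.36, and its highest value in any group was 5.52, in a control IgG tumour. Krt23 ran from 4.30 to 5.18 over all arrays.

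Partner chains were compared over the 90 arrays in 6 pairs, with p-values from 100000 permutations, two-sided and adjusted over the 6 pairs. Krt8 and Krt18 had a Pearson r of 0.944 and a Spearman rho of 0.732 (adjusted permutation p = 2e-05 for both, the smallest that this number of permutations gives after adjustment). The r was 0.916 without the 2 arrays farthest from the Krt8 median, 0.921 without the 6 arrays of low mean correlation, and 0.916 (larger) and 0.958 (smaller) by series. Krt7 and Krt19 had an r of 0.848 and a rho of 0.581 (adjusted permutation p = 2e-05 for both), with r at 0.751 without the 2 farthest arrays, 0.770 without the 6, and 0.742 (larger) and 0.916 (smaller) by series.

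The epidermal pairs had a lower r, over narrower ranges. By rho, Krt6a with Krt16 was near Krt7 with Krt19 (0.581). Krt6a and Krt16, which are induced in stressed epidermis, had an r of 0.506 and a rho of 0.528 (adjusted permutation p = 2e-05 for both), with r at 0.491 without the 2 farthest arrays, 0.462 without the 6, and 0.535 (larger) and 0.476 (smaller) by series. Krt5 and Krt14, the basal pair, had an r of 0.47 and a rho of 0.367 (adjusted permutation p = 4.5e-05 and 0.00063), and r was 0.314 without the 2 farthest arrays and 0.305 without the 6. Krt6a and Krt17 had an r of 0.291 and a rho of 0.342 (adjusted permutation p = 0.00625 and 0.00126), with r at 0.303 without the 6 and -0.071 after quantile normalization. The other probe set of Krt17 correlated with the one used at 0.014, and the others of Krt6a at 0.561 and 0.498. Krt1 and Krt10, the suprabasal pair, had an r of 0.013 and a rho of 0.145 (adjusted permutation p = 0.897 and 0.175), and an r of 0.199 without the 6 arrays. By series, larger then smaller, r was 0.374 and 0.657 for Krt5 with Krt14, 0.313 and 0.256 for Krt6a with Krt17, and -0.032 and -0.169 for Krt1 with Krt10.

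**Figure D3:**
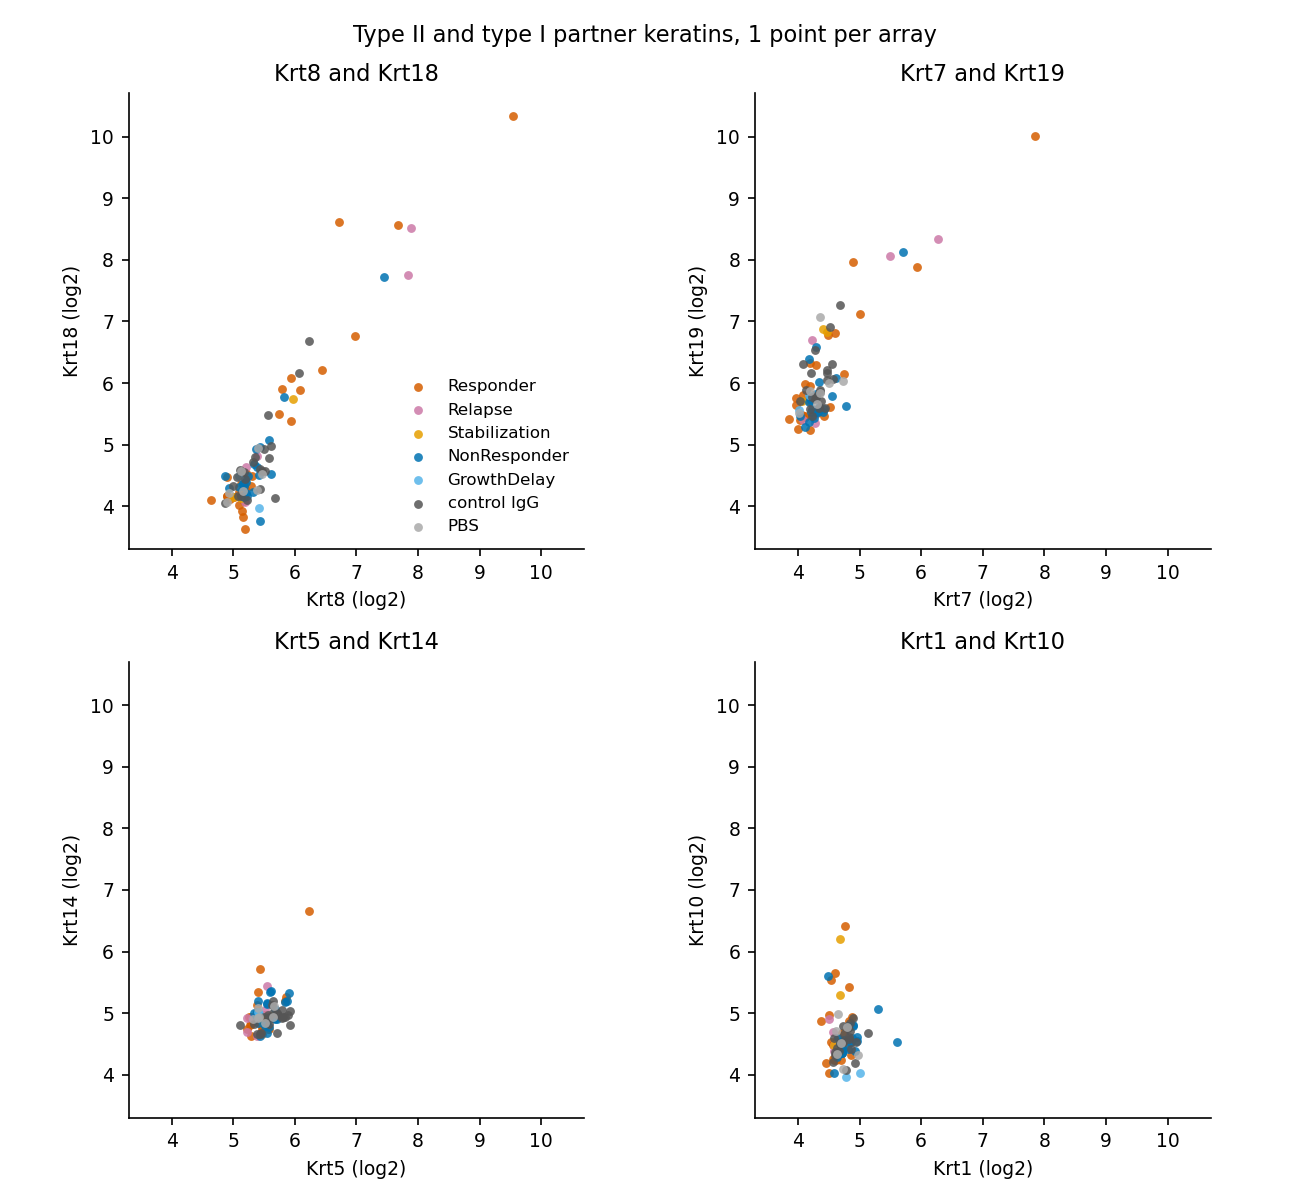
Log2 values of the type II keratin (horizontal axis) against its type I partner (vertical axis), 1 point per array coloured by group, with the same axes in all 4 panels. Krt8 with Krt18 (r = 0.944) and Krt7 with Krt19 (r = 0.848) run along a line from a dense cloud to Responder 20, while Krt5 with Krt14 (r = 0.47) and Krt1 with Krt10 (r = 0.013) stay within the cloud but for a few arrays.

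The genes outside the family most like the mean of Krt8 and Krt18 over the 90 arrays were Amy1 (r = 0.912), Ces1d (0.907), Wfdc2 (0.904), Csn3 (0.904) and Dgat2 (0.900). Amy1 encodes an amylase, Csn3 the milk protein kappa-casein, and Dgat2 an enzyme of triglyceride synthesis. They are the 5 highest of all genes, so no p is given. In Responder 20 Amy1 stood at 8.90, against a median over all arrays of 3.17. Most like the mean of Krt5 and Krt14 were Fgfr2 (r = 0.785), Cadps2 (0.75), Eci3 (0.733), Fam25c (0.725) and Glb1l2 (0.718). Without the 2 farthest arrays these 5 correlations lay between 0.510 and 0.578. Without the 6 arrays of low mean correlation the 5 genes like Krt8 and Krt18 had an r between 0.857 and 0.905, and those like Krt5 and Krt14 between 0.475 and 0.601.

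Marker lists of other cell types were set beside the Krt8 and Krt18 mean, giving 96 correlations whose permutation p-values were adjusted together. Of 6 simple epithelium markers 5 had an r over 0.5, with the adhesion molecule Epcam highest at 0.856 (rho 0.615, adjusted permutation p = 6.4e-05 and 0.00016), and Cdh1 at 0.045 (rho -0.046, adjusted permutation p = 0.786 and 0.81) was the exception. Without the 2 farthest arrays only Epcam passed 0.5, at 0.768, and without the 6 arrays of low mean correlation 3 of the 6 did, namely Epcam at 0.823, Cldn7 at 0.532 and Esrp1 at 0.514. The tight junction genes Cldn3 and Cldn4 had an r of 0.264 and 0.333 without the 6. All 3 measured adipocyte markers passed 0.5, with the lipid droplet gene Cidec at 0.886 (rho 0.605, adjusted permutation p = 6.4e-05 and 0.00016). They also passed it without the 2 farthest arrays (0.645 to 0.845) and without the 6 (0.691 to 0.854). Of 4 B cell and lymph node markers 3 passed it, as did 3 of 10 milk and mammary genes, a list chosen after the values were seen. Of the B cell and lymph node markers 0 passed without the 2 farthest arrays and 1 without the 6, Ms4a1 at 0.602. The 3 milk and mammary genes were Csn3, Wfdc2 and Ltf, which passed in both settings, while the caseins Csn1s1, Csn1s2a, Csn1s2b and Csn2 lay between -0.272 and -0.088. The 4 fibroblast markers lay between 0.344 and 0.506, and between 0.351 and 0.539 without the 6 arrays. The 4 T cell markers lay between 0.355 and 0.467, and between 0.187 and 0.333 without the 6, with the largest adjusted permutation p at 0.00507 for r and 0.731 for rho. Of 14 desmosome genes 2 passed 0.5, with Dsp highest at 0.749, and r ran down to -0.308 (median 0.027). Of 11 keratinocyte genes 1 did, Perp at 0.697, and r ran down to -0.33 (median -0.012). Without the 6 arrays Dsp and Perp had an r of 0.588 and 0.554. The 8 melanocyte markers lay between -0.477 and -0.084, the 4 mesothelium markers between -0.092 and 0.148, and the 6 muscle markers between -0.066 and 0.008. Without the 6 arrays these lists lay between -0.363 and 0.061, -0.113 and 0.194, and -0.031 and 0.028.

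The arrays with high simple keratins can be read one by one in the same markers. Responder 20 had Epcam at 10.24, Csn3 at 8.16, Wfdc2 at 9.80 and Cidec at 10.40, against medians over all arrays of 6.50, 3.78, 5.47 and 4.42. The mean of 3 adipocyte genes was 12.44 in Responder 20, 11.48 in Relapse 6, 11.38 in Responder 18, 10.89 in Responder 3, 10.83 in Relapse 4 and 10.69 in NonResponder 14, against a median of 7.29. Responder 14 was an exception, with Krt8 at 6.45 and Krt18 at 6.22 beside Epcam at 6.13, Csn3 at 3.76, Cidec at 4.26 and a muscle mean of 12.31. The mean of 8 melanocyte genes was 7.32 in Responder 20 and 9.24 in NonResponder 14, and between 10.72 and 11.01 in the other 4 of the 6 shared arrays, against a median of 11.02. The mean of 4 B cell and lymph node genes was 9.14 in Responder 20 and 9.08 in NonResponder 14, against a median of 4.90. The mean of 4 T cell genes lay between 8.11 and 10.36 in the 6 shared arrays, against a median of 7.06, and that of 4 fibroblast genes between 10.90 and 11.92, against 9.78. The part of other cell types in the Krt8, Krt18, Krt19 and Krt7 values was not tested.

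**Figure D4:**
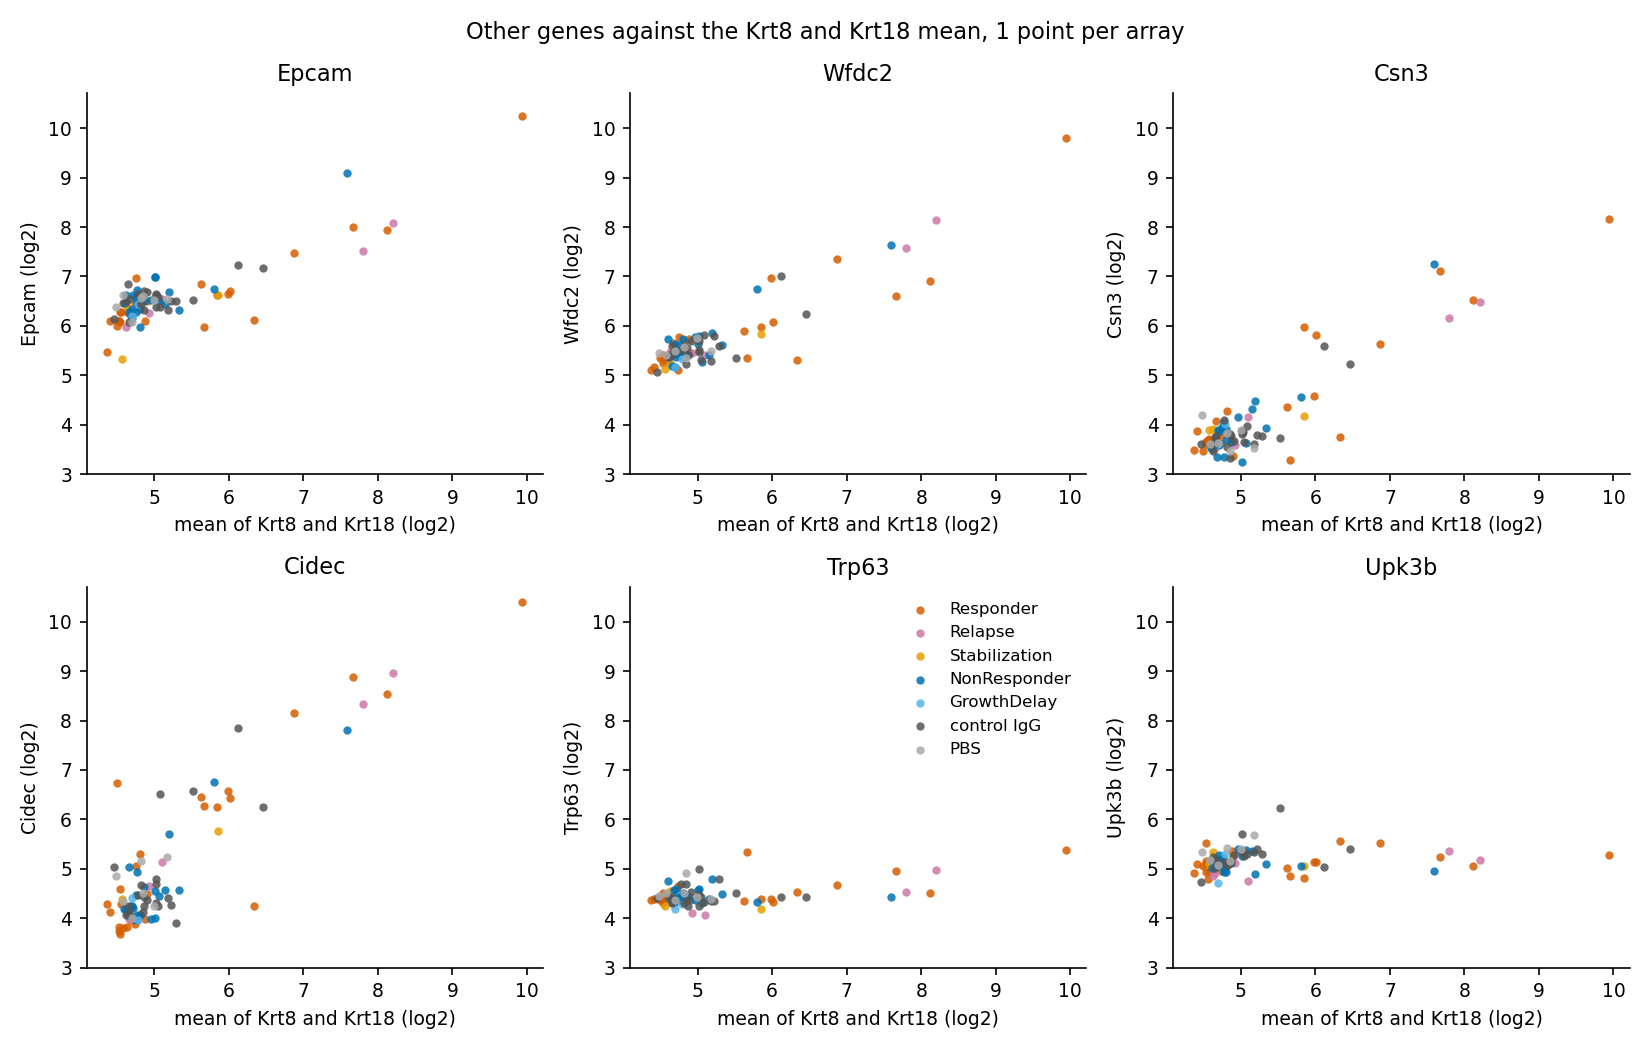
Log2 values of 6 other genes (vertical axes) against the mean of Krt8 and Krt18 (horizontal axis), 1 point per array coloured by group. Epcam, Wfdc2, Csn3 and Cidec climb with the keratin mean, with r from 0.856 to 0.904. The keratinocyte regulator Trp63 climbs less (r = 0.46, rho 0.159) and is highest in Responder 20. Without the 2 farthest arrays its r was 0.211, and without the 6 arrays of low mean correlation 0.339. The mesothelial gene Upk3b stays nearly level (r = 0.148).

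The labelled site is the layer under the skin, and keratinocyte markers outside the keratin family stood less far above their medians in any array than Krt7, Krt8, Krt18 or Krt19 did. The mean of 11 keratinocyte genes ran from 4.79 to 5.29 in Responder tumours, 4.92 to 5.12 in Relapse tumours, 4.64 to 5.03 in Stabilization tumours, 5.01 to 5.35 in NonResponder tumours, 5.09 to 5.11 in GrowthDelay tumours, 4.92 to 5.35 in control IgG tumours and 4.98 to 5.29 in PBS tumours. The largest such distance among the 11 was 1.96 on the log2 scale, in Perp, a desmosome component. The highest array was 0.95 above the median for Trp63, a regulator of stratified epithelium and 0.52 for the cornified envelope protein Lor, and Responder 20 was highest for Trp63 and Perp. Krt18, Krt8, Krt19 and Krt7, of the simple class, had the widest ranges of the family, while Krt20 and Krt23 of that class stayed narrow. Next widest were Krt10, Krt76 and Krt14 of the epidermal class. The part of skin cells in these values was not tested.

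Among epidermal keratins, the basal pair was raised in 1 array. Krt14 had lowest, median and highest values of 4.63, 4.90 and 6.66 in Responder tumours, 4.63, 4.92 and 5.44 in Relapse tumours, 4.63, 4.94 and 5.36 in NonResponder tumours, 4.65, 4.94 and 5.20 in control IgG tumours, and 4.84, 4.93 and 5.12 in PBS tumours. Krt5 had lowest, median and highest values of 5.23, 5.44 and 6.22 in Responder tumours, 5.22, 5.34 and 5.55 in Relapse tumours, 5.34, 5.56 and 5.91 in NonResponder tumours, 5.11, 5.65 and 5.92 in control IgG tumours, and 5.31, 5.42 and 5.66 in PBS tumours. The array highest in both was Responder 20, 3.31-fold above the median for Krt14 and 1.64-fold for Krt5. The other 2 probe sets of Krt14 correlated with the one used at 0.588 and 0.132 only, and keratin probe sets whose name marks cross-hybridisation, as that of Krt14, may also read related genes.

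Krt10, the suprabasal type I keratin, was high in other arrays. It was 6.41 in Responder 21, 6.21 in Stabilization 1, 5.65 in Responder 4, 5.60 in NonResponder 14 and 5.54 in Responder 20, against a median of 4.53, and these 5 arrays were the only ones more than 2-fold above it. All 5 are among the 6 arrays with a mean correlation under 0.96. Krt10 had an r of 0.648 with the mean of 4 fibroblast genes (rho 0.581, adjusted permutation p = 2.5e-05 and 5e-05) and of -0.756 with the melanocyte mean (rho -0.368, adjusted permutation p = 2.5e-05 and 0.000975), over 5 relations computed. Without the 2 farthest arrays these were 0.588 and -0.562. By series, larger then smaller, they were 0.522 and 0.75 for fibroblast genes and -0.498 and -0.884 for melanocyte genes. Without the 6 arrays of low mean correlation r was 0.459 with fibroblast genes and -0.251 with melanocyte genes, so the second relation rests mostly on those arrays. With the keratinocyte mean r was -0.257 (rho 0.141, adjusted permutation p = 0.0203 and 0.186) and became 0.02 without the 2 farthest arrays and 0.314 without the 6.

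Of the other epidermal keratins, Krt1, Krt2, Krt6a, Krt6b, Krt15, Krt16, Krt17, Krt77 and Krt79 had ranges from 0.64 (Krt17) to 1.36 (Krt6b). Krt76 (2.22), Krt13 (1.63), Krt80 (1.59) and Krt78 (1.46) had wider ranges than these and than the median gene. Krt76, an epithelial keratin of the mouth, was 6.83 in NonResponder 21, and the next array had 5.64. NonResponder 21 was also the highest array for Krt13 at 4.59 and Krt78 at 6.99, 2.40-fold and 2.16-fold above their medians. The other probe sets of Krt13 correlated with the one used at 0.446 and 0.089 only. The names of the Krt13 and Krt76 probe sets used mark cross-hybridisation.

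Hair keratins, whose mean levels had a median of 5.11 against 7.01 over all genes, varied least among the classes with several genes. The 6 with the widest ranges were Krt33b (1.42), Krt86 (1.35), Krt75 (1.33), Krt33a (1.31), Krt84 (1.24) and Krt32 (1.22), and no hair keratin was 2-fold above its median in any array. Krt84 had lowest, median and highest values of 6.01, 6.34 and 6.59 in Responder tumours, 6.09, 6.41 and 6.65 in Relapse tumours, 6.26, 6.55 and 7.25 in NonResponder tumours, 6.27, 6.54 and 7.09 in control IgG tumours, and 6.24, 6.65 and 6.82 in PBS tumours. Krt33b had lowest, median and highest values of 5.84, 6.26 and 6.83 in Responder tumours, 6.10, 6.26 and 6.33 in Relapse tumours, 6.10, 6.39 and 7.26 in NonResponder tumours, 6.00, 6.33 and 6.83 in control IgG tumours, and 5.88, 6.32 and 6.54 in PBS tumours.

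NonResponder 17 was the highest array for Krt33b, Krt86, Krt84 and Krt32, and for 13 of the 42 keratins outside the simple class. In this array 20 of the 21 hair keratins lay above their own medians, by 0.44 on average. NonResponder 21 was highest for a further 7 of the 42. NonResponder 17 was also the highest array for 8.04% of all genes and for 16.3% of the 7277 genes in the dimmest 40 percent, and NonResponder 21 for 5.13% and 11.6%. The 25th percentile of gene values was 5.27 in NonResponder 17, the highest of all arrays, against a median over arrays of 5.01. The share of this array-wide shift in the keratin values was not tested.

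Responder against NonResponder asks what distinguishes regressing from growing tumours under the same antibody. In limma, 25 of the 48 keratins fell and 1 rose (adjusted p under 0.05 over all genes), against 29.8% of all genes lower and 17.2% higher (47% in all). The falls numbered 9 of 20 epidermal, 7 of 13 hair shaft, all 8 inner root sheath and 1 of 6 simple keratins, the last being Krt23, and they ran from 0.107 to 0.254 on the log2 scale. The largest was in Krt24, at 5.20 ± 0.17 in Responder tumours and 5.45 ± 0.25 in NonResponder tumours (SD, n = 27 and 23), a difference of -0.25 (SE 0.056, limma adjusted p = 0.000661). Krt84 was at 6.34 ± 0.13 in Responder tumours and 6.57 ± 0.26 in NonResponder tumours, a difference of -0.22 (SE 0.051, limma adjusted p = 0.00086). Krt80 rose, at 6.75 ± 0.29 in Responder tumours and 6.57 ± 0.29 in NonResponder tumours, a difference of 0.18 (SE 0.078, limma adjusted p = 0.0494). The median difference was -0.12 over the 48 keratins and -0.06 over all genes.

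Of the 48 keratins 40 belong to the dimmest 40 percent of genes, those with a mean under 6.15. Among all dim genes 40.3% were called lower in Responder tumours, against 22.7% of the other genes, and among the keratins 21 of 40 dim and 4 of 8 other ones. Quantile normalization gave 13 calls, and leaving out NonResponder 17 and NonResponder 21 gave 17, all of them lower in both settings. The larger series alone gave 3 calls and the smaller alone 4. For these settings the share of all genes called is not given here.

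**Figure D5:**
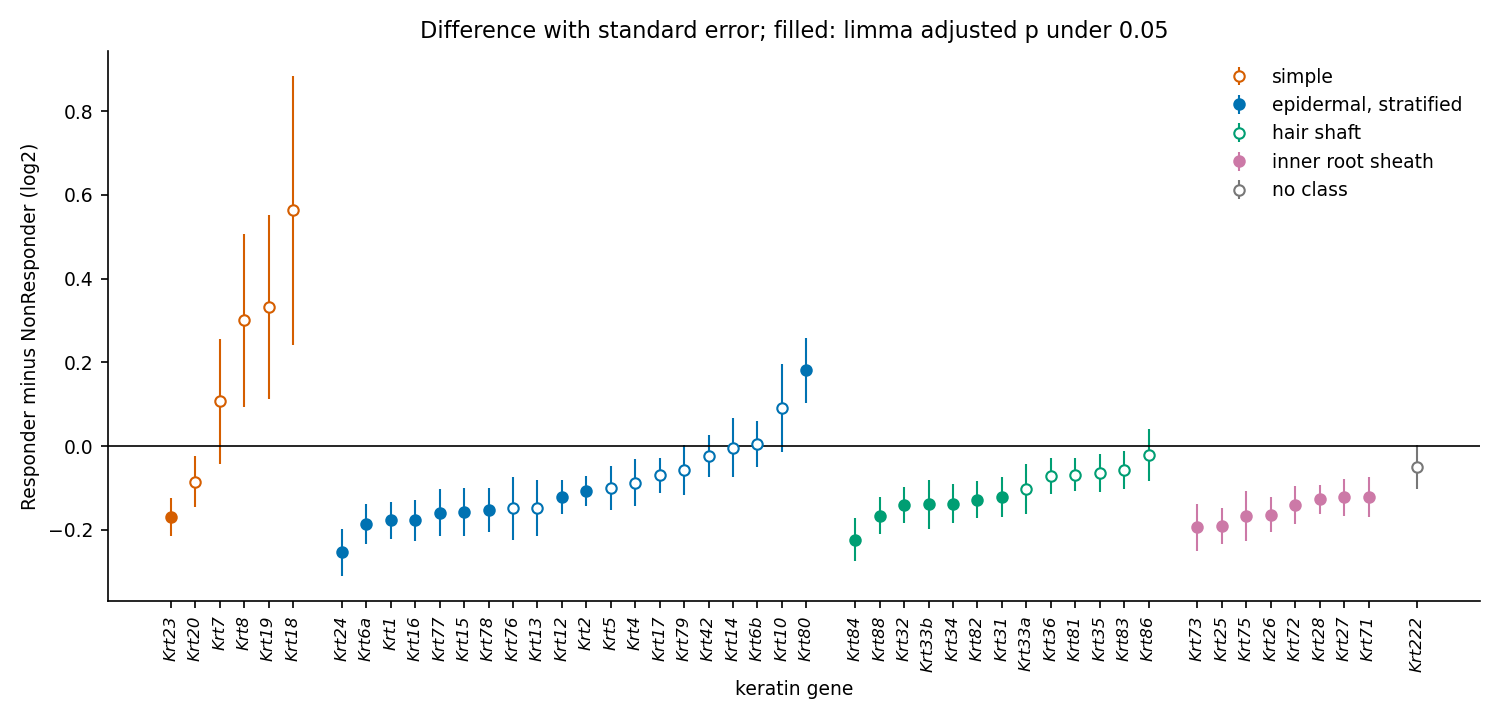
Responder minus NonResponder difference of each keratin (log2) with its standard error from limma, grouped by class; filled points passed an adjusted p of 0.05. The hair and inner root sheath genes all lie below 0, between -0.02 and -0.22, while Krt18, Krt19, Krt8 and Krt7 lie above 0 with wide errors and unfilled points.

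The 4 variable simple keratins did not pass the test. Krt18 was at 5.19 ± 1.68 in Responder tumours and 4.64 ± 0.78 in NonResponder tumours (SD, n = 27 and 23), a difference of 0.56 (SE 0.32, limma adjusted p = 0.134). By series, Krt18 differed by 0.05 (larger) and 1.38 (smaller). Krt19, Krt8 and Krt7 differed by 0.33 (SE 0.22), 0.30 (SE 0.21) and 0.11 (SE 0.15), with limma adjusted p-values of 0.198, 0.218 and 0.559. An interaction of this difference with title series was fitted across all genes. It was not called for any keratin or any other gene, with a limma adjusted p of 0.358 for Krt18 and 0.324 as the lowest of the family, while 9 of 48 keratins had an unadjusted p under 0.05.

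Responder against control IgG sets regressing tumours against tumours given an antibody without the target. In limma 20 keratins fell and 1 rose, against 22.8% of all genes lower and 14.5% higher (37.3% in all). The falls again were small, from 0.138 to 0.328, and comprised 9 epidermal, 5 hair shaft, 5 inner root sheath and 1 simple keratin. Krt33a was at 3.81 ± 0.16 in Responder tumours and 4.04 ± 0.23 in control IgG tumours (SD, n = 27 and 22). Its fitted difference was -0.33 (SE 0.074, limma adjusted p = 0.00127), and -0.28 directly within the larger series. Means are over all arrays of a group. The fitted differences rest on the 14 control IgG arrays of the larger series, so they need not equal the differences of these means. Krt6a was at 6.44 ± 0.14 in Responder tumours and 6.63 ± 0.16 in control IgG tumours, a difference of -0.31 (SE 0.058, limma adjusted p = 0.000201) and of -0.29 within the larger series. Krt80 rose by 0.35 (SE 0.095, limma adjusted p = 0.0051), at 6.75 ± 0.29 in Responder tumours and 6.43 ± 0.21 in control IgG tumours. Among all dim genes 34.5% were called lower, against 15% of the others. After quantile normalization 4 keratins were lower and 2 higher. The share of all genes called in that setting is not given here, so these counts are not read as particular to keratins. Krt18 differed by 0.45 (SE 0.39, limma adjusted p = 0.353). This comparison shares its Responder arrays with the previous one.

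NonResponder against control IgG sets treated tumours that kept growing against tumours given normal IgG. The treated group was defined by growth, so the antibody and that choice cannot be told apart here. Limma called 0 of the 48 keratins and 0% of all genes, and 3 keratins had an unadjusted p under 0.05. The fitted differences of the family lay between -0.33 (Krt19) and 0.17 (Krt80). They borrow the smaller series through the shared series term, and direct values within the larger series are not given here. GrowthDelay against control IgG also gave 0 called keratins, with 4 at an unadjusted p under 0.05 and 0% of all genes called. That difference rests on 2 arrays against the 14 control IgG arrays of the larger series. Control IgG against PBS gave 0 called keratins and 0 with an unadjusted p under 0.05, and 0.0055% of all genes were called. It rests on 14 arrays against 3, all in the larger series. The other control IgG and PBS arrays have title series of their own and enter only the estimate of the spread.

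Relapse against NonResponder compares regrown with never-regressing tumours. In limma 18 keratins fell and 0 rose, against 11.9% of all genes lower and 8.43% higher (20.3% in all). They were 9 epidermal, 4 hair shaft and 5 inner root sheath keratins, with differences from -0.345 to -0.157. Krt24 was at 5.10 ± 0.22 in Relapse tumours and 5.45 ± 0.25 in NonResponder tumours (SD, n = 6 and 23), a difference of -0.35 (SE 0.091, limma adjusted p = 0.0123). Krt32 was at 5.51 ± 0.08 in Relapse tumours and 5.78 ± 0.20 in NonResponder tumours, a difference of -0.27 (SE 0.071, limma adjusted p = 0.0117). Among all dim genes 20.7% were called lower, against 6.02% of the others. Leaving out NonResponder 17 and NonResponder 21 gave 10 calls, neither series alone gave any, and median centring of the arrays gave 36, all lower. The share of all genes called in these settings is not given here, so the counts are not read as particular to keratins.

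The simple keratins were again set by single arrays. Krt18 was 4.15, 4.07, 4.82, 7.76, 4.64 and 8.52 in the 6 Relapse tumours. The fitted difference from NonResponder tumours was 0.93 for Krt18 (SE 0.52, limma adjusted p = 0.16), and -0.35 (larger) and 2.41 (smaller) by series. Krt8, Krt19 and Krt7 differed by 0.68 (SE 0.34), 0.68 (SE 0.35) and 0.38 (SE 0.24), with limma adjusted p-values of 0.116, 0.131 and 0.222. Without the 6 arrays of low mean correlation, which include the highest NonResponder array, the call changed. Krt18 then differed by 1.10 (limma adjusted p = 0.0382), Krt8 by 0.79 (0.0153), Krt19 by 0.80 (0.0206) and Krt7 by 0.45 (0.0263). Both high Relapse arrays, Relapse 4 and Relapse 6, lie in the smaller series and stayed in that fit. The adipocyte gene Cidec had within-series differences of -0.33 and 2.88, and its fitted difference was 1.12 (SE 0.59, limma adjusted p = 0.134).

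Stabilization against NonResponder rests on 3 tumours, 2 of which are among the 6 arrays of low mean correlation. In limma Krt1, Krt23 and Krt36 fell, against 11.9% of all genes lower and 10.5% higher (22.4% in all). Krt1 was 4.69, 4.68 and 4.58 in the Stabilization tumours, and 4.83 ± 0.24 in NonResponder tumours (SD, n = 23), a difference of -0.27 (SE 0.099, limma adjusted p = 0.0405). Quantile normalization gave 2 calls, both higher. Leaving out 1 Stabilization tumour gave between 0 and 6 calls. Leaving out Stabilization 1 or Stabilization 2 gave 0, and so did leaving out NonResponder 17 and NonResponder 21 or the 6 arrays together. Shares of all genes called in these settings are not given here, so the counts are not read as particular to keratins.

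Over all 7 groups a limma F test called 22 of the 48 keratins, 45.8%, against 45.9% of all genes. They were 9 epidermal, 6 hair shaft, 6 inner root sheath and 1 simple keratin. The share of keratins called was thus near that of all genes. Krt18, Krt8, Krt19 and Krt7 had adjusted p-values of 0.41, 0.445, 0.612 and 0.719 in that limma F test, so the genes with the widest ranges were not among those called.

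Other genes of epithelia were counted in the same fits. For Responder against NonResponder, 6 of 14 desmosome genes fell and 2 rose, 6 of 18 cornified envelope genes fell, 6 of 11 keratinocyte genes fell and 1 rose, and 24 of 44 hair follicle genes, keratin-associated proteins among them, fell, against 29.8% of all genes lower and 17.2% higher. The cornified envelope share, 6 of 18, was thus near that of all genes. Among the dimmest 40 percent of genes 40.3% were called lower. The means of the hair follicle, cornified envelope and keratinocyte lists lay under the 6.15 bound of those dim genes in every array. Of 6 simple epithelium genes 1 fell, and 0 of 3 adipocyte genes were called, with a median difference of 0.79. All 4 fibroblast and all 4 T cell markers rose, with median differences of 1.14 and 1.21, and 1 of 8 melanocyte markers fell. The part of these cell types in the keratin differences was not tested. For Relapse against NonResponder, 15 of 44 hair follicle genes, 3 of 18 cornified envelope genes and 2 of 11 keratinocyte genes fell. Of all genes 11.9% were called lower in that comparison, and of the dim genes 20.7%. There, 0 of 6 simple epithelium genes were called. The median differences of these lists for Responder against NonResponder were -0.11, -0.08, -0.13 and -0.13 for desmosome, cornified envelope, keratinocyte and hair follicle genes, against -0.06 over all genes.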

How the data were processed

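The deposited table holds log2 values of 45101 probe sets on 90 arrays, which the authors made with RMA, a method that summarises the probes of each probe set, per the submitters' processing notes, where limma is named too. Versions, and which arrays were normalized together, are not given in the sources used here. Per the labels' protocols, 800 ng of RNA were amplified and labelled with biotin. Probe sets were named through the platform annotation: 34945 carried 1 symbol, 932 several and 9160 were not listed, and 64 control probe sets were left out. Values ran from 2.19 to 14.8, array medians over genes from 6.86 to 7.17, and no 2 arrays were identical.

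All 90 arrays entered 1 limma model (3.58.1, R 4.3.3; lmFit and eBayes) with group and title series as fixed terms. Benjamini-Hochberg adjustment ran over all 18193 genes, two-sided, and genes under 0.05 are called. The model was tested on simulated data. Responder and NonResponder differences from control IgG borrow the smaller series through the shared block. Direct values within the larger series are given for Krt33a and Krt6a in Responder tumours. The 8 control IgG and 4 PBS arrays outside the larger and smaller series enter the printed means and the spread, not the fitted differences. Replicates were numbered in accession order.

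The members, lists and tests were chosen with earlier results of these data known. Named with values were all simple keratins, 12 listed epidermal keratins, the 6 hair keratins of widest range, any called member changed by over 0.5 (there was none), the 5 genes most like each partner mean, and up to 4 genes of each other list. Other names, among them Krt24, Krt76, Krt80, Krt13, Krt78, Krt36, Perp, Lor and the milk genes, were chosen after their values were seen, as were the single arrays described and the milk gene list. Promoters come from RefSeq (GRCm38.p6). Not measured with a probe set of their own were Krt3, Krt9, Krt37 to Krt40, Krt74, Krt85, Krt87, Krt89 and Krt90.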

Additional observations from a re-analysis of the deposited data

Results flagged for a closer look

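Within groups of 4 to 10 arrays, 96 sets of values were examined for an array far from the rest, and 4 were found, where chance gives about 5%. Krt19 was 7.07 in PBS 4, and the next PBS array had 6.04. Krt4 was 5.41 in PBS 1, the lowest of its group, with the next at 5.71. Krt25 was 2.95 in PBS 1, also the lowest, with the next at 3.28. Krt77 was 4.84 in Relapse 1, the lowest of the 6 Relapse arrays, with the next at 5.09.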

How the results depend on the processing

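Counts of called keratins for Responder against NonResponder (26) were 3 in the larger series alone, 4 in the smaller alone, 5 of 8 tested without dim genes, 13 after quantile normalization and 17 without NonResponder 17 and NonResponder 21. For Responder against control IgG (21) they were 12 with no series term, 4 without dim genes and 6 after quantile normalization. For Relapse against NonResponder (18) they were 8 with no series term, 0 in either series alone, 3 without dim genes, 36 after median centring, 8 after quantile normalization and 10 without NonResponder 17 and NonResponder 21. For Stabilization against NonResponder (3) they were 0 with a random series block, 0 in the smaller series alone, 0 without dim genes, 7 after median centring, 0 without the 6 arrays of low correlation, 0 without NonResponder 17 and NonResponder 21, and 0 to 6 without 1 Stabilization array. The F test (22) gave 7 in the larger series, 0 in the smaller, 4 without dim genes, 39 after median centring and 10 after quantile normalization. The other counts stayed within 1.5 times their value, although quantile normalization turned the direction for Stabilization, with 2 higher and 0 lower genes. Fewer genes tested or fewer arrays bear on the filtered and single-series counts, and the cause of the other moves was not tested. The alternatives without named arrays were chosen after seeing the data. Shares of all genes called in each setting are not given here. The counts therefore show how the calls move, and not how keratins compare with other genes.

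The correlation of Krt1 with Krt10 was -0.092 and that of Krt6a with Krt17 -0.071 after quantile normalization, and the second was 0.151 with group and series means removed. In the larger series alone the sign turned for Responder against NonResponder in Krt7 (-0.12) and Krt8 (-0.0463), and for Relapse against NonResponder in Krt18 (-0.35), Krt19 (-0.0075), Krt7 (-0.23) and Krt8 (-0.21), none of them called in the fit of all arrays. No paired analysis was possible because the labels give no replicate numbers. Low signal of most keratin probe sets limits what small differences show.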
